A study of Mus musculus with 6 samples.

Results

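The genes described here encode respiratory complexes II, III and IV, cytochrome c and factors that assemble them, measured in kidney cortex of C3aR-/- mice and wild-type (WT) mice. They were chosen by symbol among the transcript probes of the array: Sdha to Sdhd, the Sdhaf genes, the Uqcr genes, Cyc1, Cycs, and the Cox genes numbered from Cox4 to Cox8 and from Cox10 upwards. This gave 43 genes out of 37325 distinct gene names on the array, covered by 69 probes. Complex II held 8 of them, complex III 9, cytochrome c 1 and complex IV 25. By role there were 30 subunit genes, 12 assembly factor genes and the electron carrier Cycs. Cox5b and mt-Co3 had no probe matched by name and are not analysed here.

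Complex II (succinate dehydrogenase) oxidises succinate as a step of the citric acid cycle and hands the electrons to ubiquinone. Complex III (the cytochrome bc1 complex) passes them from ubiquinol to cytochrome c, and complex IV (cytochrome c oxidase) passes them on to oxygen. Complexes III and IV pump protons, while complex II does not. Complex II is encoded wholly in the nucleus, whereas complexes III and IV combine nuclear subunits with subunits of the mitochondrial genome, and several complex IV subunits have tissue-restricted isoforms. The tubules of the renal cortex, the proximal tubule above all, depend on this chain for the ATP that drives solute transport.

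C3aR is the receptor for C3a, a peptide released when complement component C3 is cleaved. The arrays came from a study of diabetic nephropathy, of which the control arm is given here: 3 C3aR-/- samples and 3 WT samples of renal cortex from male C57BL/6 mice. Both genotypes were 8 weeks old at the start, ate a normal chow with 10% of its calories from fat, received vehicle injections in place of streptozotocin after 4 weeks, and were killed 20 weeks after the time of induction. The labels name no promoter, Cre or founder line for the knockout. Separate animals are not named for the 3 samples of a genotype, so a p-value here reflects only how these samples varied, which may be technical.

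Total RNA was labelled with Cy3 and hybridised to 1-colour Agilent arrays, 1 sample per array. Between 56.5% and 59.3% of the 59305 transcript spots on an array were well above background, and no spot was saturated. The 3 C3aR-/- arrays lay on 1 slide and the 3 WT arrays on another, so slide and genotype cannot be told apart in any comparison below. The C3aR-/- replicate 1 array had 145 spots flagged as non-uniform, against 2 to 8 on the other arrays, and it stood apart from the other arrays on the second principal component. The C3ar1 probe was well above background on 0 of 3 C3aR-/- arrays and 1 of 3 WT arrays, too dim to check the genotype. Proximal tubule markers, led by Kap, Slc34a1, Pdzk1 and Miox, lay far above the 75th percentile on all 6 arrays.

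Each level below is the log2 of the background-subtracted spot intensity minus the 75th percentile of its array, so a level of 0 is that percentile. A difference is C3aR-/- minus WT on the same log2 scale, for the brightest probe of the gene. A probe entered the test if all 3 arrays of either genotype flagged it as well above background, and 40 of the 43 genes had such a probe. A gene was counted as changed at a limma p under 0.05 after Benjamini-Hochberg adjustment over all 20553 genes tested.

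The promoters of the group are shown because the nuclear genes of the chain are textbook targets of NRF-1 and of the ETS factor GABP, whose own transcripts are described further on. RefSeq promoter windows (GRCm38.p6, 250 bases before to 50 bases after the start of a gene) were found for 31 of the 43 genes, in 32 windows. The NRF-1 core CGCANGCG, searched on both strands, stood in 9 of these 32 windows (28.1%), against 8.21% of all 32851 windows. The GABP letters ACCGGAAG stood in 2 windows (6.25%, against 2.30% of all), AAGATGGC of YY1 in 1 (3.12%, against 2.75%) and TCAAGGTCA of the oestrogen-related receptors in 1 (3.12%, against 0.423%). The 9 windows with an NRF-1 core belonged to Cox6a1, Cycs, Sdha, Sdhaf3, Sdhaf4, Sdhd, Uqcr10, Uqcr11 and Uqcrc1. Those of Sdha, Sdhd, Cox6a1 and Cycs, whose matches reach farthest before the start, are printed in the direction of transcription, with the matching letters in capitals. These are matches of letters, with no measurement of binding.
Sdha promoter (chr13:74350241-74350490, minus strand): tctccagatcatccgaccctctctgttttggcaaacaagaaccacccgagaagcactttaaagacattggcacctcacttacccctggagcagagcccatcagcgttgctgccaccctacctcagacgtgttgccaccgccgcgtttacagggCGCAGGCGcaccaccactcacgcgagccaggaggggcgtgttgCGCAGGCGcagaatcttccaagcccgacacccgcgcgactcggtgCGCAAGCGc
Sdhd promoter (chr9:50603850-50604099, minus strand): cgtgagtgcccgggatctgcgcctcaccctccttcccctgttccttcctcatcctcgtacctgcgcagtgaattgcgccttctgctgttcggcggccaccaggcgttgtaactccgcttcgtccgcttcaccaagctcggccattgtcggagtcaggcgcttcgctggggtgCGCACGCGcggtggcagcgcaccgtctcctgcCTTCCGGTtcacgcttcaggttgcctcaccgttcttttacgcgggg
Cox6a1 promoter (chr5:115348959-115349208, minus strand): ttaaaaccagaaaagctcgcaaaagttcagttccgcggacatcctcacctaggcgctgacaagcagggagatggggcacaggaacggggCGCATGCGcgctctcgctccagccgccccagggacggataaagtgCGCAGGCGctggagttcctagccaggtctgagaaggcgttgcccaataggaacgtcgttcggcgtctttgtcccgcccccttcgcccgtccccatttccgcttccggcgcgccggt
Cycs promoter (chr6:50566570-50566819, minus strand): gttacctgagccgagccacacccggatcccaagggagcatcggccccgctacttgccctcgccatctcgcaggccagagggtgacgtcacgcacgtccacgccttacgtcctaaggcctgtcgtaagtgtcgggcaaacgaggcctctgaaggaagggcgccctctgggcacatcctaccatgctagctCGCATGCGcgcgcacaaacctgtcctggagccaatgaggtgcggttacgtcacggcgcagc

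In these windows the first base of a match lay 97, 54 and 9 bases before the start of Sdha, the flavoprotein subunit of complex II, and 161 and 116 bases before that of Cox6a1. It lay 61 bases before the start of Cycs. Sdhd, a membrane anchor of complex II, had an NRF-1 core 78 bases and the GABP letters, on the opposite strand, 46 bases before its start. In the windows not printed, NRF-1 cores lay 44, 6 and 5 bases before the starts of Sdhaf4, Sdhaf3 and Uqcr11. None of the 4 genes printed passed the test between genotypes.

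Most genes of complexes II to IV did not pass the test between the genotypes. Of the 40 tested, Cox6a2 rose in C3aR-/- cortex, Cox15 fell by its brightest probe, and 38 did not pass. That is 5.0% of the group, against 14.4% of all genes tested. The share called was lower among bright genes: at a level of 3.09 or more, the lower quartile of the members, it was 10.3% of 3398 genes. Of the 30 members at or above that level, 0 were called. Among all genes 7.07% were higher and 7.30% lower. Without correction, 6 of the 40 had a p under 0.05 with a higher level in C3aR-/- and 2 with a lower one, against 18.1% and 15.3% of all genes. The levels of the genotypes did not overlap for 15 members that were higher and 3 that were lower in C3aR-/-. Over all genes 41.3% did not overlap, and 22.2% of all genes lay apart upwards and 19.1% downwards. In bulk tissue, fewer cells of a type and less RNA per cell cannot be told apart.

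**Figure D1:**
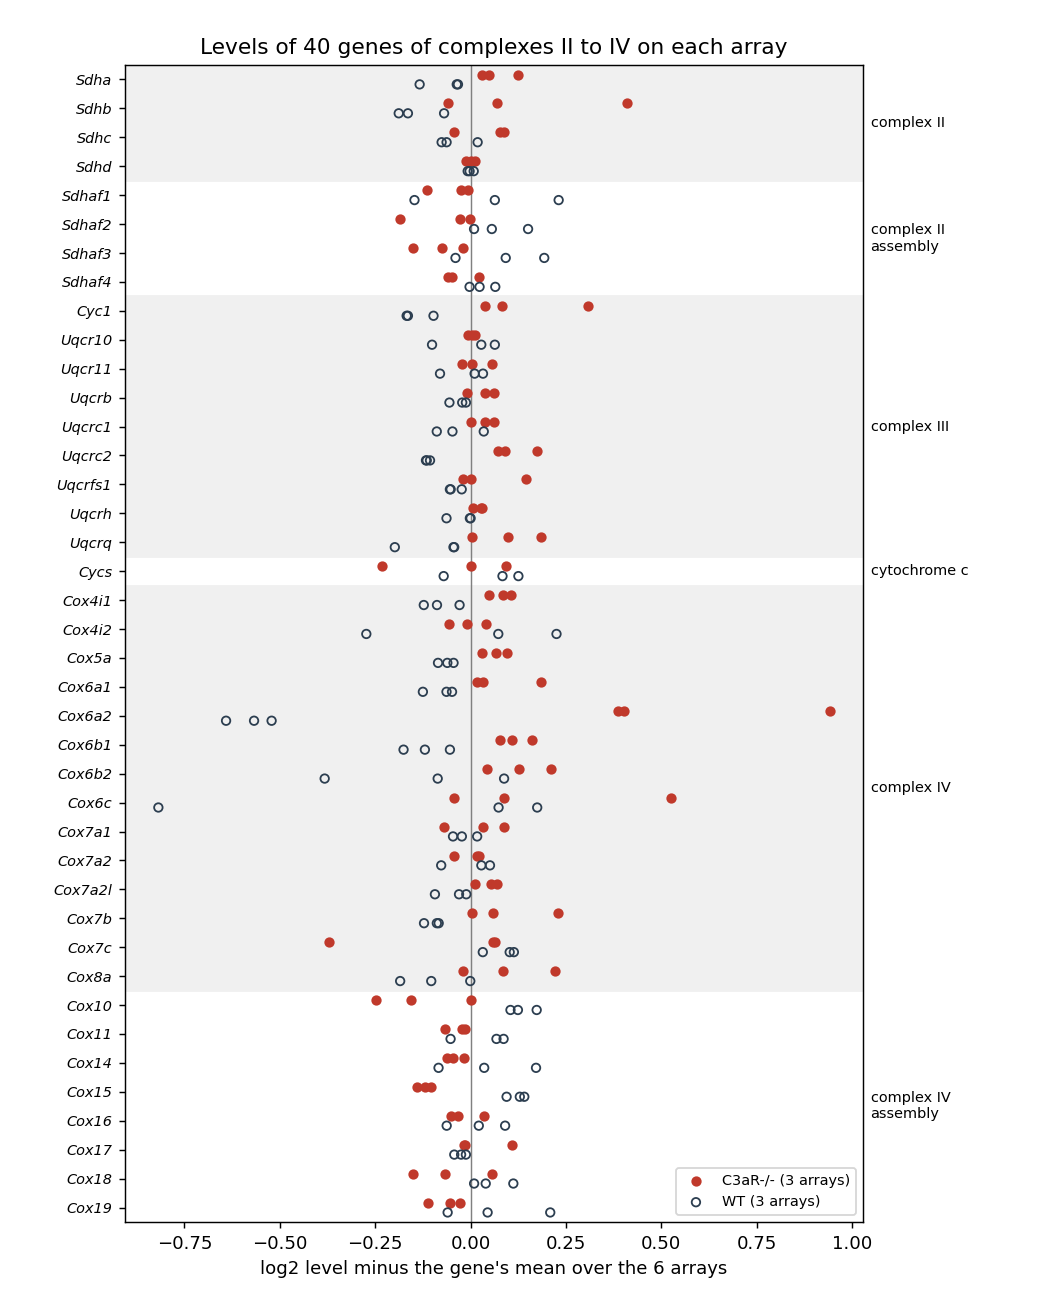
Log2 level on each of the 6 arrays minus the mean of the gene over the arrays, for the 40 genes tested, with C3aR-/- as filled points above WT as open points. Cox6a2 has its 3 C3aR-/- arrays far to the right of its 3 WT arrays, while most other genes lie close to 0.

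The nuclear subunit genes and the assembly factor genes leaned in opposite directions by small amounts. Of 27 subunit genes tested, 24 had a positive difference, with a median of 0.13, against a median of 0.02 and 52.6% positive among all genes. Of 12 assembly factor genes, 11 had a negative difference, with a median of -0.10. Centred on the mean of each gene, the median over subunits was 0.09, 0.05 and 0.03 on the C3aR-/- arrays and -0.05, -0.03 and -0.09 on the WT arrays. For the assembly factors it was -0.06, -0.03 and -0.04 on the C3aR-/- arrays and 0.05, 0.13 and -0.04 on the WT arrays. The subunit medians of the genotypes did not overlap, and the WT replicate 3 array fell among the C3aR-/- arrays for the assembly factors. Neither lean held under every processing. The subunit median was 0.01 with quantile normalisation, where 16 of 27 were positive. That method gives every array the same set of values, which takes out a shift shared by the brightest genes. It therefore cannot decide whether a lean of bright genes is real. The assembly median was 0.00 with the mean of the probes of each gene in place of the brightest.

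Over all genes the difference varied with the level of the gene and the base composition of its probe. Of the 454 genes with a mean level of 6 or more, 85.7% had a positive difference and their median was 0.13, while 11 subunit genes of that range had a median of 0.16. With quantile normalisation, which gives every array the same set of values, the median of those 454 genes was -0.01 and 44.7% were positive. Genes with levels between 4 and 6 had a median of 0.04, and the 11 subunit genes among them 0.09. Among the assembly factors, all 4 with a level from 0 to 2 and all 4 from 2 to 4 were negative, where all genes had medians of 0.00 and 0.01. All 12 were negative with quantile normalisation, with a median of -0.13. The probes of the subunit genes had a median GC content of 45% and those of the assembly factors 39.2%, against 43.3% for all genes. Over all genes the median difference was -0.31 for probes under 30% GC and -0.04 for probes from 35% to 40%, against 0.08 for probes from 55% to 60%. The 4 subunit genes with probes from 35% to 40% GC were all positive, with a median of 0.17. The part of level and GC content in the leans was not tested further.

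**Figure D2:**
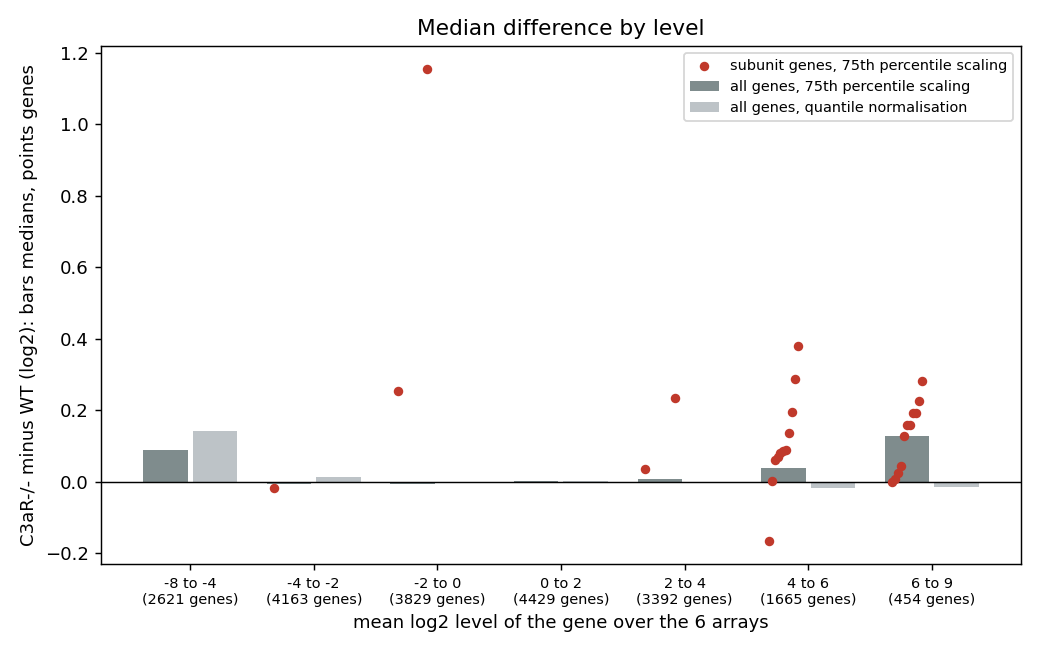
Median log2 difference, C3aR-/- minus WT, of all genes by mean level, with scaling to the 75th percentile and with quantile normalisation, and single subunit genes as points (75th percentile scaling). The brightest genes have a median of 0.13 with the first scaling and -0.01 with the second, and most subunit genes fall in the upper level ranges.

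None of the 8 complex II genes passed the test by its brightest probe, though a second probe of Sdhaf2 did. Of the differences, 4 were positive and 4 negative, and the median was -0.03. All 4 subunit genes were positive (3 of 4 with quantile normalisation) and all 4 assembly factors negative (also with quantile normalisation). Sdha, which carries the FAD and the succinate site, was at 5.97, 5.89 and 5.88 in C3aR-/- and at 5.81, 5.81 and 5.71 in WT cortex. Its levels lay apart, by 0.14 ± 0.06 (SE), or 0.04 with quantile normalisation, but did not pass (adjusted p = 0.189). The other passing Sdha probes, at mean levels of 3.44, -1.89 and -3.43, differed by 0.29, 0.17 and -0.37 and did not pass. Only the dimmest Sdha probe was opposite in sign to the brightest. Sdhb, the iron-sulphur subunit, was at 6.70, 6.36 and 6.23 in C3aR-/- and at 6.13, 6.22 and 6.10 in WT cortex. The C3aR-/- replicate 1 array was the high one, and the difference of 0.28 ± 0.13 (SE; 0.15 with quantile normalisation) did not pass (adjusted p = 0.185). Its 95% interval was -0.03 to 0.60. The membrane anchor genes differed by 0.08 for Sdhc and 0.00 for Sdhd, with 95% intervals of -0.08 to 0.24 and -0.13 to 0.13.

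The complex II assembly factors had differences from -0.16 to -0.06 by their brightest probes. Sdhaf2 helps attach FAD to Sdha. Its brightest probe was at 0.42, 0.57 and 0.60 in C3aR-/- and at 0.66, 0.75 and 0.61 in WT cortex. A second Sdhaf2 probe ran the other way and passed among all probes, with -0.60, -0.47 and -0.53 in C3aR-/- and -0.90, -0.92 and -0.83 in WT cortex, a difference of 0.35 (adjusted p = 0.0288). Sdhaf3 and Sdhaf1, which act on the iron-sulphur subunit, differed by -0.16 and -0.10. Sdhaf4, which acts on flavinylated Sdha, differed by -0.06.

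Complex III had 9 nuclear subunit genes tested. By their brightest probes all 9 differences were positive, from 0.01 to 0.29 with a median of 0.07, and none passed. This direction depended on the scaling, since 4 of the 9 were positive and the median was -0.02 with quantile normalisation. For 6 of the 9 the genotypes did not overlap, all with C3aR-/- higher. Over all genes 22.2% lay apart upwards and 19.1% downwards. Overlap was not counted with quantile normalisation, so the count of 6 holds for the main scaling only. Uqcrc2, a core subunit, was at 6.35, 6.25 and 6.27 in C3aR-/- and at 6.06, 6.06 and 6.07 in WT cortex. The difference of 0.23 ± 0.06 (SE) just missed the threshold (adjusted p = 0.0523), and 5 of 11 other processing settings called it, against 0 of the 6 fits that left out 1 array. It was 0.11 with quantile normalisation and 0.0973 in the deposited table. Its only probe lies on mm9 chromosome 7 at 127802599 to 127802658.

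Cyc1 encodes cytochrome c1, the haem subunit that hands electrons to cytochrome c. It was at 6.22, 6.00 and 5.95 in C3aR-/- and at 5.82, 5.75 and 5.75 in WT cortex, a difference of 0.29 ± 0.09 (SE, adjusted p = 0.0798), or 0.19 with quantile normalisation. All C3aR-/- arrays were above all WT arrays, with replicate 1 highest. A second Cyc1 probe had no usable spot on that array and was at 6.26 and 6.27 on the other C3aR-/- arrays, against 5.96, 5.97 and 5.80 in WT cortex. Cyc1 was called in 3 of the 11 other settings and in 0 of the 6 fits that left out 1 array.

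The remaining complex III genes lay closer together. Uqcrq differed by 0.19, the Rieske protein gene Uqcrfs1 by 0.09, the core subunit gene Uqcrc1 by 0.07 and the hinge protein gene Uqcrh by 0.04. Uqcr10 and Uqcr11, small subunits of the complex, differed by 0.01 and 0.02. The second Uqcr10 probe ran the other way, by -0.11 (adjusted p = 0.295 over all probes). Uqcrb, the ubiquinone-binding subunit, depended on the probe. Its brightest probe differed by 0.06, another by 0.34 (adjusted p = 0.0409 over all probes) and the dimmest by -0.47 (adjusted p = 0.0231). No direction is given for Uqcrb.

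Cytochrome c, which shuttles between complexes III and IV, did not pass the test. Cycs was at 6.38, 6.61 and 6.70 in C3aR-/- and at 6.69, 6.73 and 6.54 in WT cortex. The ranges overlapped, the difference of -0.09 ± 0.11 (SE) had an adjusted p of 0.576, and its second probe differed by 0.11.

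Complex IV held both genes that passed, or 9.09% of its genes tested, against 14.4% of all genes. Of its 25 genes 22 were tested, 12 with positive and 10 with negative differences and a median of 0.04. The 14 subunit genes tested had a median of 0.16, or 0.02 with quantile normalisation, and the 8 assembly factors a median of -0.10, or -0.12 with quantile normalisation. Cox7b2, Cox8b and Cox8c were not well above background on any array.

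Cox6a2 encodes the heart and skeletal muscle isoform of subunit VIa and showed the largest difference of the group in these fits. It was at -0.36, -0.34 and 0.20 in C3aR-/- cortex and at -1.31, -1.39 and -1.27 in WT cortex. The 3 C3aR-/- arrays lay well above the 3 WT arrays, with replicate 3 highest. The difference was 1.15 ± 0.16 (SE), a 2.22-fold higher level in C3aR-/- (adjusted p = 0.0133). It passed in all 11 other processing settings, with adjusted p from 0.00384 to 0.0417, and in 5 of the 6 fits that left out 1 array. Without WT replicate 2 the adjusted p was 0.0528 with a difference still within 0.97 to 1.25, the range over those fits. The gene rests on 1 probe, on the minus strand of mm9 chromosome 7 at 135349160 to 135349219, whose sequence is shown because the result depends on it alone.
Cox6a2 probe: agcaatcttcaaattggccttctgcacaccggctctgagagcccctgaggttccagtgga

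Cox6a1, the widely expressed counterpart, was at 8.44, 8.27 and 8.29 in C3aR-/- and at 8.19, 8.20 and 8.13 in WT cortex. The genotypes did not overlap, and the difference of 0.16 ± 0.07 (SE) did not pass (adjusted p = 0.175). It was 0 with quantile normalisation and in the deposited table. Quantile normalisation gives a probe of equal rank on every array the same value, so that 0 does not check the difference. Of 10 striated muscle markers 4 were tested, and Tnnt3 (fast troponin T) rose by 0.80 (adjusted p = 0.0166). Its level was low, at -3.52, -3.87 and -3.58 in C3aR-/- and at -4.32, -4.45 and -4.62 in WT cortex. Myl1, a fast myosin light chain, also passed the test (adjusted p = 0.0279), but it entered only through the C3aR-/- arrays, and its C3aR-/- mean of -5.17 was below the detection floor of -5.13 on the WT arrays, which leaves Myl1 without a direction. The myosin heavy chain genes Myh6 and Myh4 differed by 0.38 (adjusted p = 0.109) and -0.09 and did not pass. Of the 4 tested, 2 were called (50%, against 14.4% of all genes), Myl1 among them. The log2 of the summed level of the 4, Myl1 included, was -1.61 to -1.44 in C3aR-/- and -2.07 to -1.90 in WT cortex. No direction is read from that sum. The defining muscle genes Ckm, Acta1, Actn3, Myh2 and Mb did not pass the background filter. Of 10 adipocyte markers 3 were tested and none passed, and Ucp1 and Adipoq did not pass the background filter. The part of other cell types in the Cox6a2 difference was not tested.

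The other isoform pairs did not pass. Cox4i1, the common isoform of subunit IV, was at 7.56, 7.53 and 7.58 in C3aR-/- and at 7.35, 7.45 and 7.39 in WT cortex, apart by 0.16 ± 0.06 (SE, adjusted p = 0.116). Cox4i2, known from lung and from oxygen sensing, was at -2.32, -2.37 and -2.41 in C3aR-/- and at -2.28, -2.13 and -2.63 in WT cortex. These ranges overlapped and the difference was -0.02. Cox4i1 was called in 2 of the 11 other settings, but its difference was -0.02 with quantile normalisation.

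Cox6b1, the common isoform of subunit VIb, was at 3.82, 3.77 and 3.74 in C3aR-/- and at 3.61, 3.54 and 3.48 in WT cortex. All C3aR-/- arrays were higher, by 0.23 ± 0.06 (SE, adjusted p = 0.0578), and 3 of the 11 other settings called it, against 0 of the 6 fits that left out 1 array. Cox6b2, the testis isoform, was at -0.24, -0.16 and -0.33 in C3aR-/- and at -0.75, -0.46 and -0.28 in WT cortex. WT replicate 3 reached into the C3aR-/- range, and the difference of 0.25 did not pass (adjusted p = 0.225). Of 7 sperm markers only Tnp1 was tested, with a difference of 0.23 that did not pass.

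Cox7a2, the liver-type isoform of subunit VIIa, was at 6.93, 6.87 and 6.93 in C3aR-/- and at 6.94, 6.96 and 6.83 in WT cortex. Cox7a1, the muscle isoform, was at 3.46, 3.62 and 3.57 in C3aR-/- and at 3.49, 3.55 and 3.51 in WT cortex. Both pairs of ranges overlapped, with differences of 0.00 (95% interval -0.16 to 0.15) and 0.03 (-0.13 to 0.19). Cox8a, the common isoform of subunit VIII, was at 7.46, 7.33 and 7.22 in C3aR-/- and at 7.24, 7.14 and 7.06 in WT cortex, overlapping slightly, with a difference of 0.19 (adjusted p = 0.186; 0.02 with quantile normalisation). Its muscle counterpart Cox8b was below the background limit on all arrays.

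**Figure D3:**
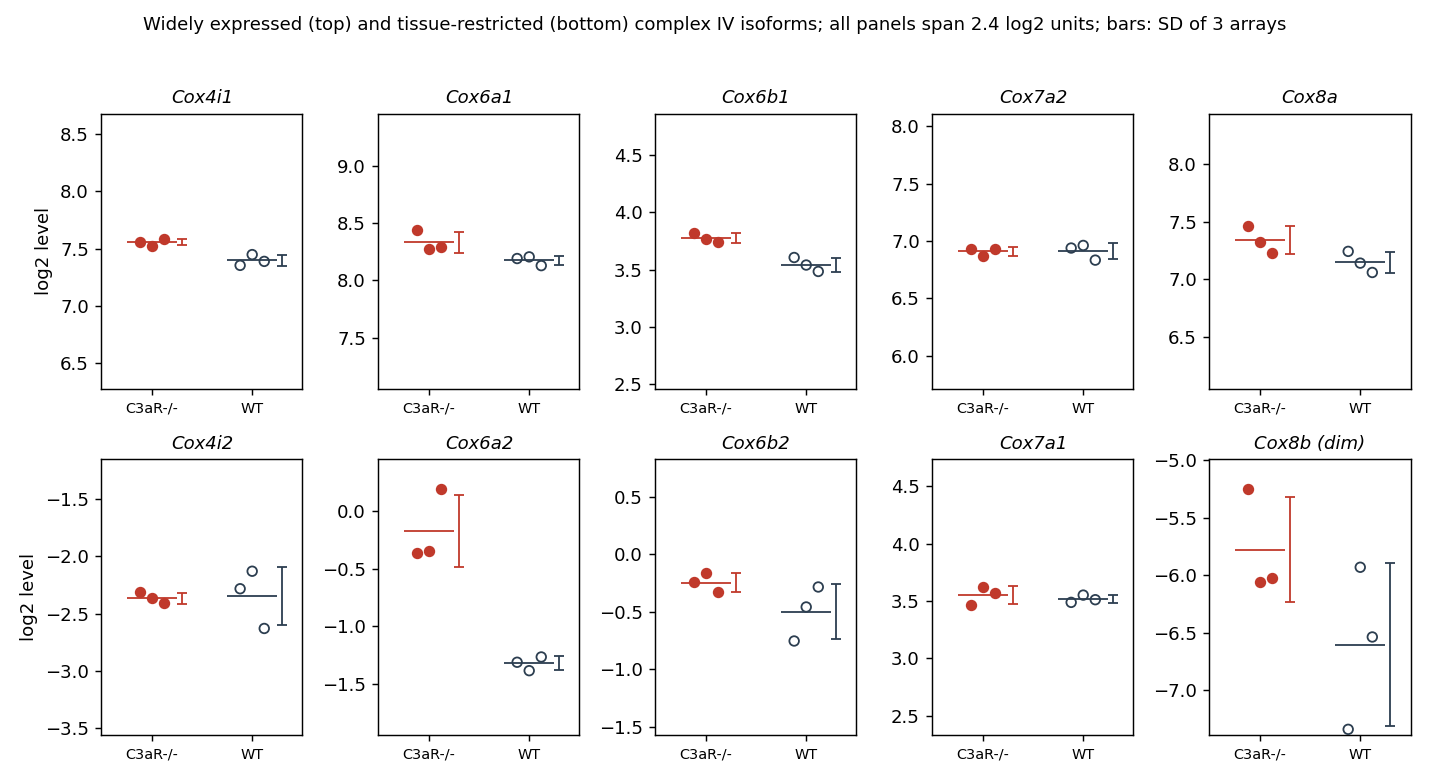
Log2 levels on the 3 C3aR-/- arrays (left, filled) and the 3 WT arrays (right, open) for the widely expressed isoforms of complex IV (top) and their tissue-restricted counterparts (bottom). Lines are means, bars are SD of 3 arrays and each panel spans the same range; Cox6a2 alone shows C3aR-/- about 1.15 above WT, and Cox8b was below background.

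Among the other complex IV subunits, single arrays set several values. Cox6c was at 6.15, 5.71 and 5.58 in C3aR-/- and at 5.70, 5.80 and 4.81 in WT cortex. WT replicate 3 was low and the difference of 0.38 ± 0.30 (SE) did not pass (adjusted p = 0.411). Cox7c was at 5.92, 5.92 and 5.48 in C3aR-/- and at 5.96, 5.97 and 5.89 in WT cortex, with C3aR-/- replicate 3 the low one. Its second probe was lower in C3aR-/- by 0.44 (difference -0.44, adjusted p = 0.0312 over all probes), at 1.83, 1.58 and 1.64 in C3aR-/- and at 2.16, 2.14 and 2.07 in WT cortex. Cox5a, Cox7b and Cox7a2l, the last a factor in supercomplex formation, differed by 0.13, 0.20 and 0.09 and did not pass, though in each the genotypes did not overlap. With quantile normalisation they differed by -0.04, 0.12 and 0.01.

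Cox15, which with Cox10 makes the haem A of complex IV, was the 1 member that fell by its brightest probe. That probe was at 1.32, 1.30 and 1.33 in C3aR-/- and at 1.56, 1.58 and 1.53 in WT cortex, a difference of -0.24 ± 0.05 (SE), or 1.18-fold lower (adjusted p = 0.0364). The arrays of each genotype lay close together and did not overlap. The second Cox15 probe was at -2.56, -2.39 and -2.30 in C3aR-/- and at -2.53, -2.74 and -2.68 in WT cortex, a difference of 0.23 (adjusted p = 0.158 over all probes). The probes therefore opposed each other, and no direction is given for the gene. The call held in 6 of 11 other settings and in 0 of the 6 fits that left out 1 array, where adjusted p ran from 0.0691 to 0.109. The brightest probe has 28.3% GC, a range in which 38.0% of the 150 genes were called lower, and the second has 53.3%. They lie on the minus strand of mm9 chromosome 19 at 43809657 to 43809716 and at 43812528 to 43812587.
Cox15 brightest probe: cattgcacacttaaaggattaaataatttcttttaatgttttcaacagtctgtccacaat
Cox15 second probe: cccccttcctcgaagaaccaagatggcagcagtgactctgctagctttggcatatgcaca

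Opposed probes were frequent among the assembly factors. Of the 8 assembly factors with a second passing probe, 7 (87.5%) had at least 1 other probe of opposite sign. That compares with 3 of 5 subunit genes and 47.4% of 7012 genes with more than 1 passing probe. Where both differences had to exceed 0.1 in size, it was 5 of the 8 assembly factors (62.5%), against 1 of 5 subunit genes and 19% of the 7012 genes. The median was -0.12 for the brightest and 0.23 for the next brightest probe of these 8. Cox10, which adds the farnesyl tail of haem A, differed by -0.27 (adjusted p = 0.0753) by its brightest probe and by 0.62 (adjusted p = 0.0615 over all probes) by the other. That other Cox10 probe was dim and near the detection floor, at a mean level of -4.42 against 1.29 for the brightest. Cox18, a membrane insertase, gave -0.11 and 0.15, and Cox19, a copper-pathway protein, gave -0.13 and 0.13. Cox14 gave -0.08 and 0.24, although its probes share 15 bases, shown in capitals, on the plus strand of mm9 chromosome 15.
Cox14 brightest probe (chr15:99558368-99558427): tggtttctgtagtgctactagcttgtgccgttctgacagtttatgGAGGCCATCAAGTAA
Cox14 second probe (chr15:99558413-99558472): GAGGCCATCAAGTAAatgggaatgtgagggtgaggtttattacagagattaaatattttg

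The brightest Cox14 probe was at 5.99, 6.04 and 6.01 in C3aR-/- and at 6.09, 6.23 and 5.97 in WT cortex, overlapping. The second was at 5.23, 5.20 and 5.24 in C3aR-/- and at 4.99, 5.03 and 4.92 in WT cortex, with no overlap (adjusted p = 0.0594 over all probes). Cox17, a copper chaperone, was the only assembly factor with a positive difference by its brightest probe, 0.05, and its other 2 passing probes gave 0.23 and 0.22. Cox11, also a copper factor, gave -0.07 and Cox16 gave -0.03. The other passing Cox16 probes gave -0.14, -0.11 and, for a dim probe at a mean level of -4.40, 0.02.

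**Figure D4:**
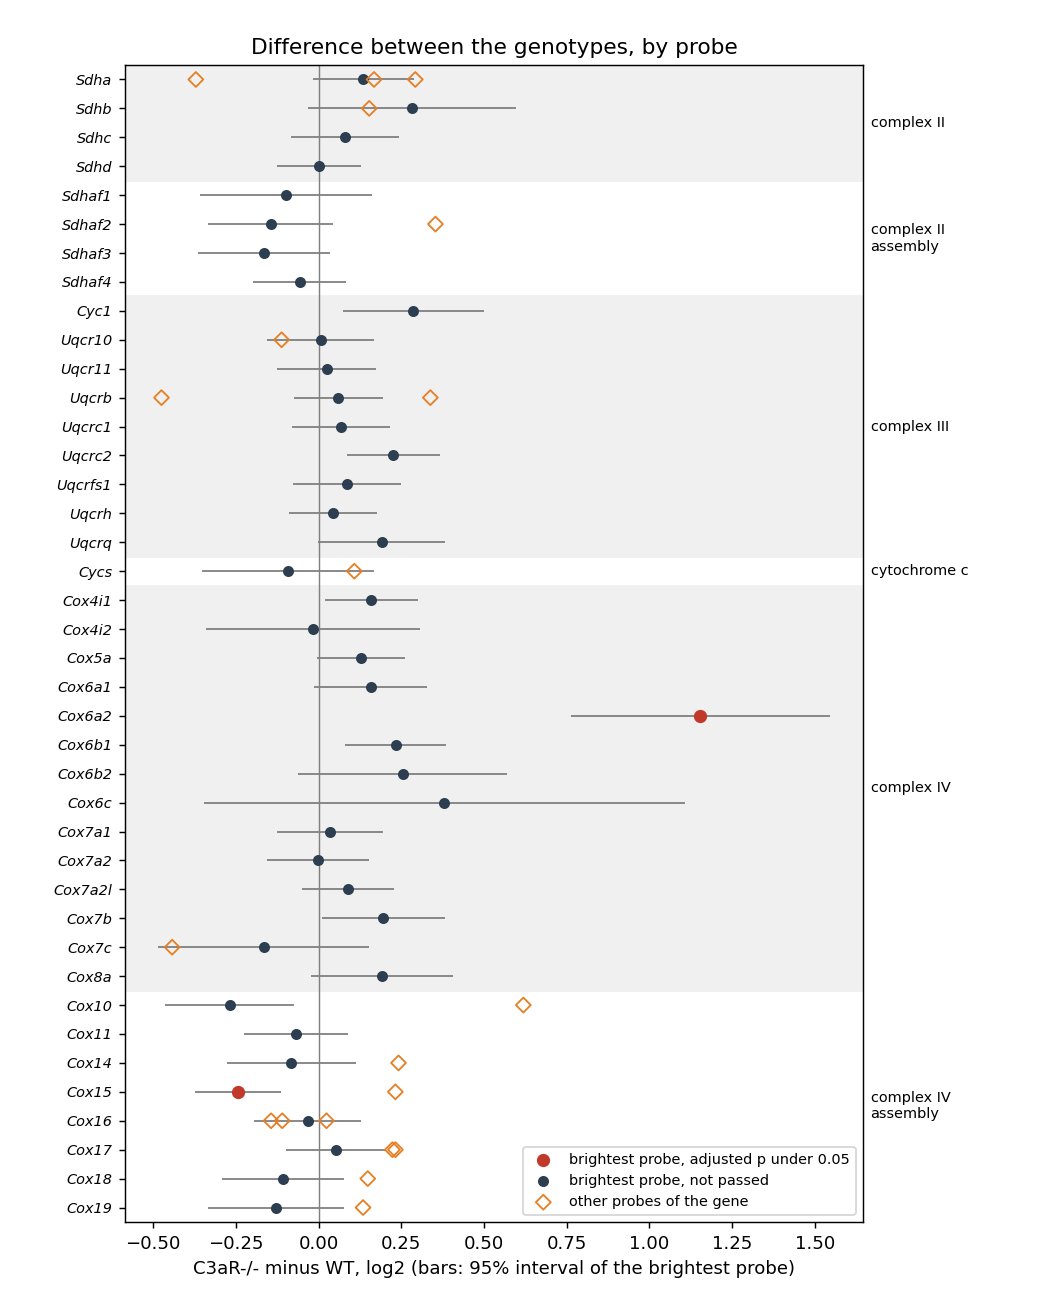
Log2 difference, C3aR-/- minus WT, of the brightest probe of each gene with its 95% interval, and of the other passing probes as open diamonds. Cox6a2 and the brightest Cox15 probe pass the test; the other probes of Cox10, Cox14, Cox15, Cox18, Cox19 and Sdhaf2 lie on the opposite side of 0 from the brightest.

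Assembly and stability factors of complexes III and IV outside the Cox names were mixed. Of 33 genes 32 were tested, and 2 rose and 3 fell. That is 15.6%, close to the 14.4% of all genes. In the list 12 differences were positive and 20 negative, and the median was -0.05. Hccs, which attaches haem to cytochromes c and c1, rose by 0.58 (adjusted p = 0.0330) at 6.12, 5.80 and 5.84 in C3aR-/- and 5.47, 5.38 and 5.17 in WT cortex. Uqcc3, a complex III assembly factor, rose by 0.33 (adjusted p = 0.0308). Sco1, a copper chaperone for complex IV, fell by 0.48 (adjusted p = 0.0214) by its brightest probe, and its other probe differed by -0.42. It was at -1.90, -2.05 and -2.10 in C3aR-/- and at -1.61, -1.44 and -1.55 in WT cortex. Coa5 and Cmc4 fell by 0.33 and 0.30. Without C3aR-/- replicate 1, 1 of the 32 fell and 0 rose. Over the 6 fits that left out 1 array, Sco1 and Uqcc3 were called in 1 each, and Hccs, Coa5 and Cmc4 in 0.

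Of the mitochondrial-genome subunits 3 were tested, all with positive differences. mt-Co2, which holds the first copper centre of complex IV, rose by 0.44 (adjusted p = 0.0413), the 1 call among the 3 (33.3%), at 7.07, 6.79 and 6.82 in C3aR-/- and 6.55, 6.47 and 6.34 in WT cortex. mt-Co1 and mt-Cytb differed by 0.22 and 0.13 and did not pass. Without C3aR-/- replicate 1 none of the 3 was called, and mt-Co2 was called in 0 of the 6 fits that left out 1 array.

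Among 17 regulators of mitochondrial biogenesis, 1 was called higher and 4 lower by their brightest probes (29.4%, against 14.4% of all genes), with a median of 0.14. Gabpa, the DNA-binding subunit of GABP, was at -0.02, -0.13 and 0.03 in C3aR-/- and at 0.35, 0.45 and 0.41 in WT cortex. Its difference was -0.44 ± 0.07 (SE, adjusted p = 0.0169), but its other 2 probes gave 0.28 and 0.09, so the Gabpa probes opposed each other. Nrf1, which encodes NRF-1, was at 0.13, 0.01 and 0.06 in C3aR-/- and at 0.47, 0.40 and 0.42 in WT cortex, a difference of -0.37 ± 0.06 (SE, adjusted p = 0.0204). Its other probes gave -0.10 and -0.04. Polrmt, the mitochondrial RNA polymerase, fell by 0.29 (adjusted p = 0.0366), and Esrrg differed by -0.32 with other probes at -0.34 and 0.16, which leaves Gabpa and Esrrg without a direction. Twnk, the mitochondrial DNA helicase, rose by 0.48 (adjusted p = 0.0102), at -0.86, -0.80 and -0.81 in C3aR-/- and -1.24, -1.35 and -1.33 in WT cortex. The coactivator gene Ppargc1a differed by 0.27 (adjusted p = 0.0555) and Tfam by 0.20 (adjusted p = 0.112). Without C3aR-/- replicate 1, 1 regulator was called higher and 2 lower. Twnk was called in 6 of the 6 fits that left out 1 array and Gabpa in 5. Nrf1 was called in 1 of these fits, and Polrmt and Esrrg in 0.

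Of 13 coenzyme Q synthesis genes, which make the carrier between complexes II and III, Coq8a rose by 0.40 and Coq7 fell by 0.28 (15.4%, close to the 14.4% of all genes), and the median was -0.01. Neither was called without C3aR-/- replicate 1. Of the 6 fits that left out 1 array, 1 called Coq8a and 0 called Coq7. Of 8 genes for other routes into ubiquinone, Prodh (proline dehydrogenase) rose by 0.39 (adjusted p = 0.0260) and Sqor (sulphide oxidation) by 0.26 (adjusted p = 0.0481), which is 25% of the list, with a median of 0.23. Only 1 of these 8 was called with quantile normalisation, and 1 without C3aR-/- replicate 1. Over the 6 fits that left out 1 array, Prodh was called in 2 and Sqor in 0. Of 14 genes of mitochondrial mass, such as Cs, Immt and the import genes, Vdac3 fell by 0.24 (adjusted p = 0.0498), or 7.14% of the list, 7 differences were positive and 7 negative, and the median was 0.01.

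**Figure D5:**
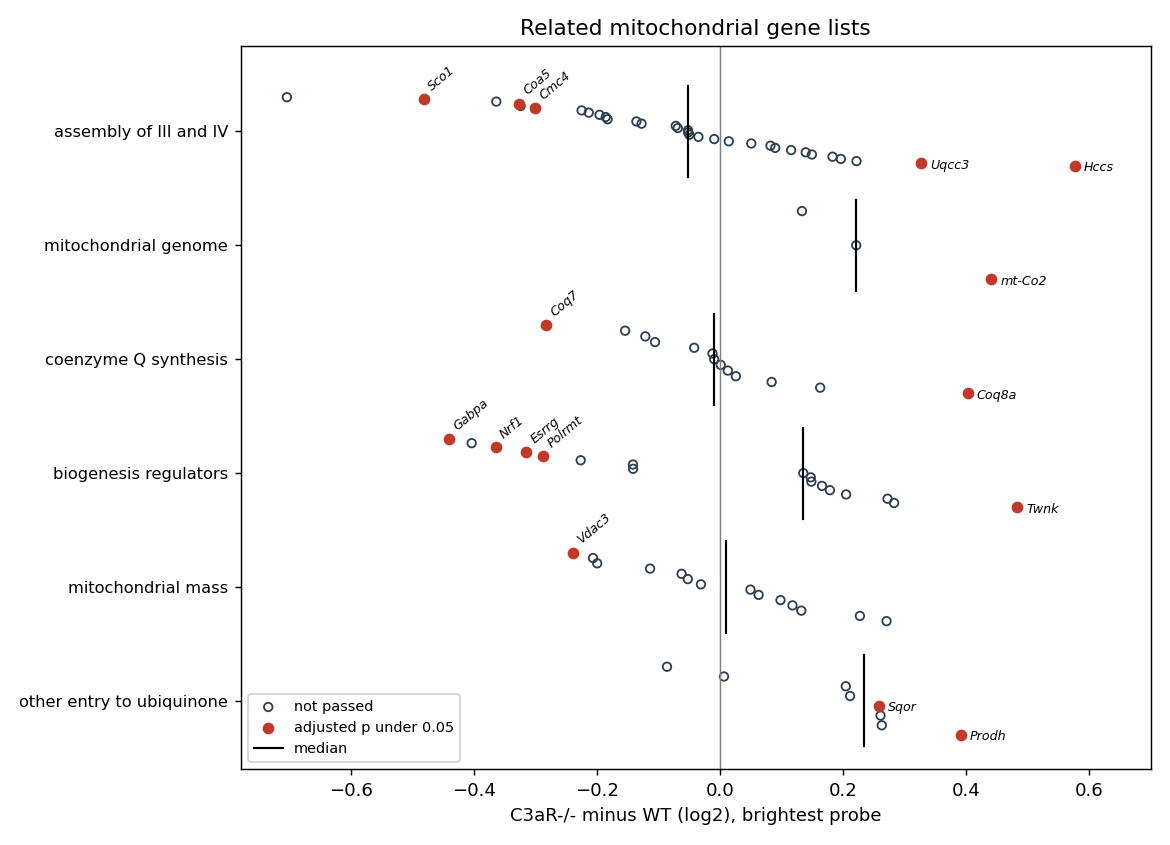
Log2 difference, C3aR-/- minus WT, of each tested gene of 6 related mitochondrial lists, with genes that passed as filled points and the median of each list as a bar. Hccs, mt-Co2, Twnk and Coq8a lie to the right, Gabpa, Nrf1 and Sco1 to the left, and the medians run from -0.05 to 0.23.

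Cell type markers were given beside these values because bulk cortex mixes cells with different mitochondrial content, and each count is set against the 14.4% of all genes called. Of 20 proximal tubule markers, Slc5a2 and Slc7a9 rose by 0.34 and 0.35 (10%), 18 differences were positive and the median was 0.20. Over all genes, 58.4% of those with a level between 4 and 6 and 85.7% of those at 6 or more were positive. The log2 of the summed level of the 20 markers was 10.72 to 10.80 in C3aR-/- and 10.54 to 10.63 in WT cortex. With quantile normalisation 1 of the 20 was called, and none without C3aR-/- replicate 1. Over the 6 fits that left out 1 array, Slc7a9 was called in 1 and Slc5a2 in 0. In the collecting duct list Aqp2 (by 0.88), Aqp3 and Scnn1g rose and Slc4a1 fell, among 10 (40%). In the thick limb and distal list Cldn16 rose and Pvalb fell, among 10 (20%). Wt1 was called higher by its brightest probe among 6 podocyte markers (16.7%), although its other probe differed by -0.02. Pecam1 rose and Kdr fell among 7 endothelial markers (28.6%). Cd68 fell among 8 macrophage markers (12.5%), Jchain and Mzb1 among 5 B and plasma cell markers tested (40%), and Klrb1c among 5 T and NK cell markers tested (20%). Positive differences were also the more frequent among podocyte (6 of 6, median 0.24), collecting duct (7 of 10, 0.26), thick limb and distal (8 of 10, 0.15) and endothelial markers (5 of 7, 0.08). They were the less frequent among macrophage (1 of 8, median -0.14), T and NK cell (2 of 5, -0.17) and B and plasma cell markers (0 of 5, -0.75). These lists hold few genes each, and no list was tested as a set. The part of cell composition in the values of complexes II to IV was not tested.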

How the data were processed

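Agilent Feature Extraction 10.7.1.1 read the scanner images, per the submitters' processing notes, and the deposited files give each spot an intensity with background subtracted. A deposited table of log2 values was used as an alternative only, and its other steps are not stated in the labels. Its subunit median (0.0058) lay close to that with quantile normalisation (0.0075), and the same members were called. These settings may therefore not be independent checks. Coordinates are those of the array files (mm9). Control and outlier spots were left out, spots of a probe were averaged, and the log2 intensity was centred on the 75th percentile of each array. Of 56605 probes, 106 had no usable spot on some array and 30930 passed the filter, and the brightest stood for each of 20553 genes. limma 3.58.1 in R 4.3.3 compared 3 C3aR-/- and 3 WT arrays, two-sided, with Benjamini-Hochberg adjustment over all genes. Other probes were tested in a fit over all probes. The script was tested on simulated data. The number of arrays limits the precision.

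The members, the gene lists and the rule for named genes were chosen with earlier results of these data known. By that rule, values on all arrays were given for members called in the fit or changing call under more than 2 settings, and for 5 isoform pairs, with up to 4 called genes from each other list; other members given by array were chosen after their values were seen. Replicate numbers did not pair the arrays: deviations of same-numbered arrays correlated at 0.04, -0.03 and -0.07.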

Additional observations from a re-analysis of the deposited data

How the results depend on the processing

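Against 2 members called, there were 5 with normexp background correction, 4 with median scaling, 7 with an intensity trend and robust fit, 1 without a filter on dim probes, 1 with the mean of the probes of each gene, and 0 to 1 when 1 array was left out, with 0 only without WT replicate 2. With the replicate number as a block 1 member (Cox6a2) and 654 genes were called; the numbers do not pair the arrays. Complex III, with 0 called, had 2 with normexp, 2 with median scaling, 2 with the trend and robust fit, and 1 each with array weights and with a filter that asked all 6 arrays to be above background. Complex IV, with 2 called, had 5 with the trend and robust fit, 1 without a filter, with the mean of probes or with the block, and 0 to 1 when an array was left out. All genes called were 2954, against 925 without a filter and 737 to 1696 when an array was left out. The median difference of the members, 0.05, was -0.0271 with quantile normalisation, -0.0363 in the deposited log2 table and 0.10 with median scaling. The medians of subunits and assembly factors were added after seeing the data: the subunit median, 0.13, was 0.0075 with quantile normalisation, 0.0058 in the deposited table, 0.16 with normexp, 0.18 with median scaling and 0.0898 with the mean of probes, and the assembly median, -0.10, was -0.0015 with the mean of probes. Median scaling moved the median of all genes to 0.07. The cause was not tested, apart from the fewer arrays in the fits that left 1 out. No member of complex II and not Cycs was called in any of the 17 settings, counting 1 value per gene. The second Sdhaf2 probe did pass in the fit over all probes.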
